A study of Mus musculus with 36 samples.

Results

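RNA from the left ventricle was compared with RNA from the atria in CUG960 mice that had never received doxycycline (–dox) and so had not been induced to express the CUG repeat RNA. This comparison asked how the chambers of this heart model differ with the repeat off, across all expressed genes. Its members were chosen by the cohort and tissue labels alone, and comprised 6 of the 36 libraries of the series, 3 from ventricle and 3 from atria. All mice were TREDT960I (Hom)/MHCrtTA (Hem), which means that they carried the inducible repeat transgene on both alleles and 1 copy of a doxycycline-dependent activator driven by the α-MHC promoter, active in cardiomyocytes. Tissue was collected at 21 weeks of age. The +/–dox cohort, used here for a second look at the same chambers, had the same genotype and age, received dox from postnatal day 1 and was taken off it at 9 weeks. The study sampled both tissues from the same 3 animals per cohort, of which 1 was female in the –dox cohort, and did not sample the right ventricle. All 36 libraries came from mice with these transgenes, so none of the values below describes a wild-type heart.

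Atrial and ventricular cardiomyocytes share most of the contractile apparatus but use different members of several gene families. Atrial cells are also endocrine: they store natriuretic peptide in granules and release it when stretched. The ventricle, which works against a higher pressure, is rich in mitochondria and burns mainly fatty acids. Chamber identity is set up in the embryo by transcription factors, among them T-box and Iroquois family members and the COUP nuclear receptors.

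The 6 libraries held between 58800932 and 77999827 estimated read counts assigned to genes. Within a chamber the libraries correlated at 0.995 to 0.997 (Pearson's r of log10(TPM + 1) across genes). Levels of a gene in the chambers are given below as normalized CPM, which are counts divided by a library size scaled with the trimmed mean of M values (TMM), and levels of different genes are compared as TPM, a relative molar abundance that allows for transcript length. A gene was called when edgeR's quasi-likelihood test gave a Benjamini-Hochberg adjusted p under 0.05 and the fold was at least 1.5, and every adjusted p below is from that test. Of 19231 genes tested, 4795 were called (24.9%), of which 2151 were higher in ventricle (11.2%) and 2644 higher in atria (13.7%). At a fold of at least 4 the counts were 452 (2.35%) and 872 (4.53%), and at a fold of at least 16 they were 130 (0.676%) and 258 (1.34%). The normalized CPM of the ventricular and atrial libraries did not overlap for 97.5% of the called genes and for 51.9% of all genes tested.

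**Figure D1:**
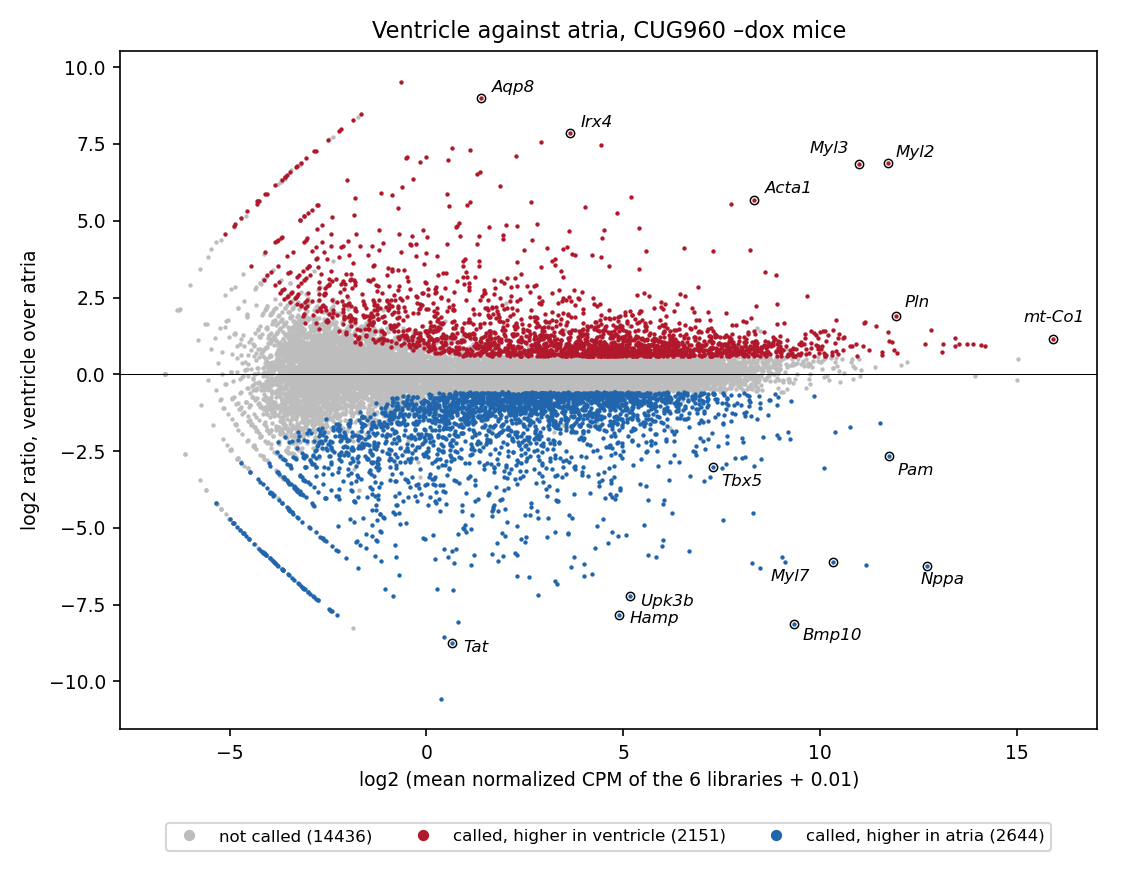
Log2 ratio of ventricle over atria against mean level (log2 of the mean normalized CPM of the 6 libraries + 0.01) for each gene tested, with red for called genes higher in ventricle, blue for called genes higher in atria and grey for the rest. Genes above a log2 ratio of 5 or below -5 range from the lowest levels up to Myl2, Myl3 and Nppa, and the lines of points at far left are genes with few counts in 1 chamber and none in the other.

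The scale used matters for small differences. Genes encoded by mitochondrial DNA took 15.5 to 17.3% of the counts in ventricle and 9.02 to 9.88% in atria. With TMM scaling the median log2 ratio of all genes was -0.03, while with library totals alone it was -0.35, a shift of -0.32. The share of called genes that were higher in ventricle was 44.9% with TMM, 20.6% with library totals (1231 and 4739 genes) and 9.04% with limma on log2(TPM + 1), where the median log2 ratio of all genes was -0.47. No called gene named below changed direction between these scales, but Cdh5, Col4a1, Dhrs3, Fgf13, Hey2, Myh7 and Ttn lost the call with library totals, and Actc1, Cacna2d1, Ckm, Col4a2, Gja4, mt-Atp8, mt-Cytb, mt-Nd4l, Gm10925, Gm28437 and Gm28661 were also lost on log2(TPM + 1). List counts are on the TMM scale unless another is named.

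Chamber markers followed the tissue labels. Of 8 atrial myocyte markers 8 were called higher in atria, against 13.7% of all genes, and of 6 ventricular myocyte markers 6 were called higher in ventricle, against 11.2% of all genes (4 with library totals, without Hey2 and Myh7). The summed TPM of the atrial markers was 55681 to 59141 in the atrial libraries and 127 to 1055 in the ventricular ones, and that of the ventricular markers was 19976 to 25079 in ventricle and 298 to 1106 in atria. Genes shared by all cardiomyocytes had summed TPM of 23064 to 24646 in ventricle and 23619 to 24725 in atria, which overlapped. Of these 7 genes Actc1, Ttn and Pln were called, all higher in ventricle.

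The low level of each chamber's markers in the other chamber differed between libraries. As a share of the mean atrial TPM, Myl7 stood at 0.0764, 2.08 and 0.805% in ventricular libraries 1, 2 and 3, Myl4 at 0.0993, 1.86 and 0.812%, Nppa at 0.216, 1.69 and 0.826% and Sln at 0.155, 2.01 and 0.76%. These 4 genes were all lowest in ventricular library 1 and highest in library 2. Bmp10 did not share that order, at 0.094, 0.119 and 0.57%. In the atrial libraries Myl2 stood at 0.19, 0.174 and 3.51% of its ventricular mean and Myl3 at 0.197, 0.199 and 3.61%, with atrial library 3 high for both. Pam and Kcnj3, with smaller chamber differences, ranged less between libraries: Pam stood at 9.05, 12.7 and 11.3% of its atrial mean in ventricle and Kcnj3 at 11.7, 10.7 and 8.72%. Folds that depended on 1 of these libraries are given with and without it below.

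**Figure D2:**
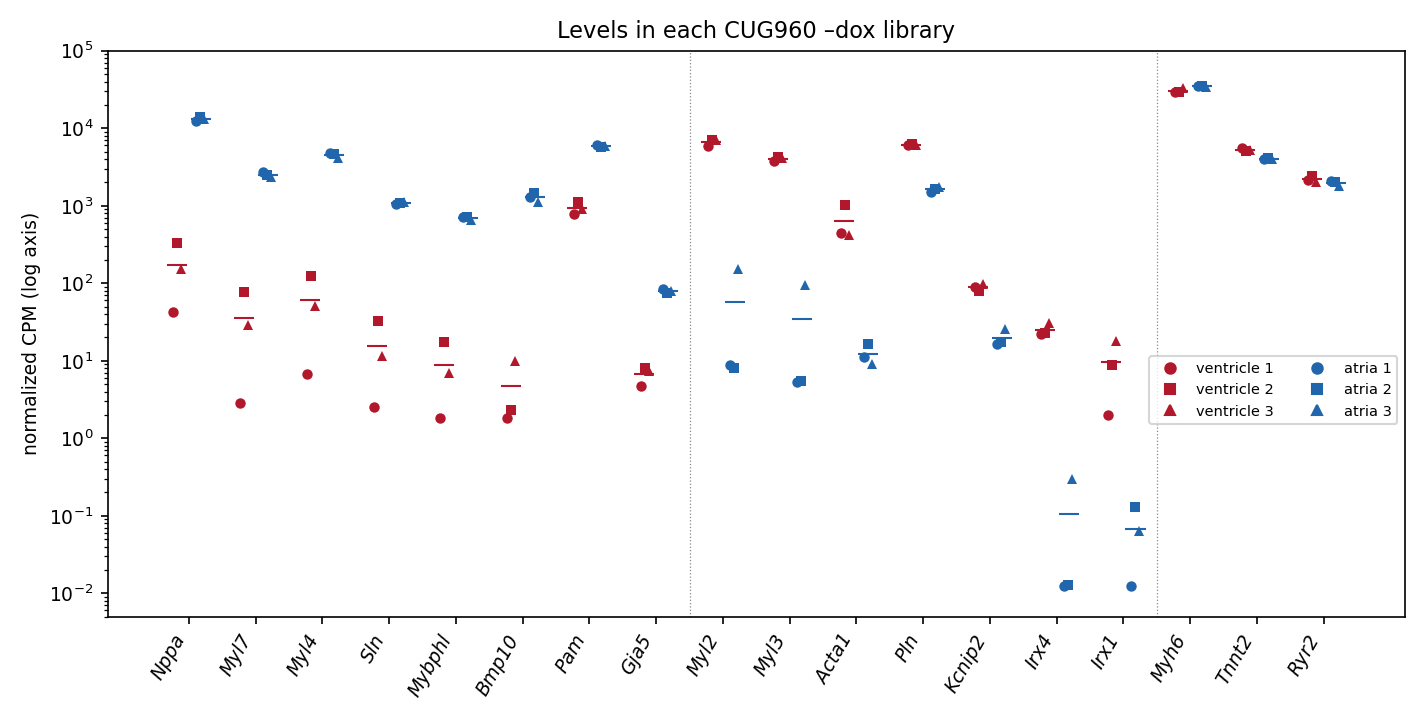
Normalized CPM (log axis) of 18 genes in each –dox library, with red for ventricle, blue for atria, symbols for library number and bars for group means. The 8 genes at left are higher in every atrial library and the 7 in the middle are higher in every ventricular library, while Myh6, Tnnt2 and Ryr2 at right lie within 1.5-fold, and the spread of the low group is widest for the strongest markers.

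Hormone and secretory granule genes were called in 1 direction, toward atria. Of 16 genes tested in the natriuretic peptide and secretory granule list, 10 were called higher in atria (62.5%, beside 13.7% of all genes), 0 higher in ventricle. The median log2 ratio was -0.92 against -0.03 for all genes. With library totals the counts were 13 and 0. Nppa, which encodes atrial natriuretic peptide, had 42.6, 330.1 and 151 normalized CPM in the ventricular libraries and 12376, 13789 and 13219 in the atrial libraries. It was 75.2-fold higher in atria (log2 ratio -6.23 ± 0.62, SE, adjusted p = 7.63e-09), and 136-fold without ventricular library 2. At 32602 ± 2470 TPM (SD, n = 3) in atria, against 296 ± 241 in ventricle, it had the largest gain in TPM of any gene. Bmp10, a ligand of the BMP family made by the heart, had 1.8, 2.31 and 9.98 normalized CPM in ventricle against 1303, 1451 and 1114 in atria, a fold of 278 (adjusted p = 4.40e-12) that became 624 without ventricular library 3. The chambers did not overlap for either gene.

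The promoters of these hormone genes are shown because both genes lie among the strongest atrial markers and can be set beside those of the contractile genes further on. Each window runs from 250 bases before to 50 after the gene start (RefSeq, GRCm38.p6), 5′ to 3′ on the gene's strand, and capitals mark matches on either strand to any of 6 short motifs searched. The T-box motif was searched as AGGTGT and was chosen because T-box factors pattern the heart. GATA factors act in cardiomyocytes of every chamber, and their motif was searched as AGATAA. The binding half-site of nuclear receptors, the family of the COUP factors and of the regulators of mitochondrial genes, was searched as AGGTCA. Its extended form, which contains the half-site and is bound by the receptors that act as monomers, was searched as TCAAGGTCA. The MEF2 and CArG motifs, which are named only, are elements of muscle gene promoters. Nppa, chr4:148000472-148000771, plus strand, holds a T-box match with 242 bases between it and the start. Bmp10, chr6:87428744-87429043, plus strand, holds GATA matches with 213 and 27 bases between them and the start. T-box matches occur in 13.7% and GATA matches in 11.2% of all 32851 windows of this length.
Nppa: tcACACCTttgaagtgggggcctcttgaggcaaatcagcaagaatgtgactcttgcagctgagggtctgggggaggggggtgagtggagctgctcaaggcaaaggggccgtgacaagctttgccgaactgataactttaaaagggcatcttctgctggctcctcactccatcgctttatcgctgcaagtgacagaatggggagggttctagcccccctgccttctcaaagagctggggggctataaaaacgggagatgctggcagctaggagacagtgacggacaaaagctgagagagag
Bmp10: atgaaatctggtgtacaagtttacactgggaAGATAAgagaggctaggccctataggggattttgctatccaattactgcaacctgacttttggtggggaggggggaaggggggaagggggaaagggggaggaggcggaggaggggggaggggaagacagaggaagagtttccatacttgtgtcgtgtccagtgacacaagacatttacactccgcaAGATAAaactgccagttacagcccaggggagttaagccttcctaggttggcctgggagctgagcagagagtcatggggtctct

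Genes for processing and clearance of natriuretic peptides were also higher in atria. Pam, which amidates peptides and is a major protein of the atrial granule membrane, had 789.9, 1131 and 897 normalized CPM in ventricle and 6138, 5668 and 5903 in atria (6.28-fold, adjusted p = 6.19e-19). Corin, the protease that cleaves the natriuretic precursor, was 1.88-fold higher in atria (213, 198 and 211 against 376, 397 and 394 normalized CPM), and Cpe, a carboxypeptidase of secretory granules, 1.62-fold. Npr3, the clearance receptor and also an endocardial marker, had 33.6, 53.4 and 29.9 normalized CPM in ventricle and 318, 349 and 308 in atria. The signalling receptors Npr1 and Npr2 were not called (log2 ratios -0.58 and -0.11), although Npr1 lay just under the fold limit. Nppb, encoding B-type natriuretic peptide, had 40.5, 76.3 and 74.4 normalized CPM in ventricle and 123, 141 and 84.8 in atria, groups that did not overlap, and it missed the threshold (log2 ratio -0.87 ± 0.37, adjusted p = 0.0603). It passed when scaled by library totals (log2 ratio -1.17). Dkk3, a secreted glycoprotein, was 62.1-fold higher in atria, with 3.4, 24.9 and 21.8 normalized CPM in ventricle and 1003, 1057 and 1051 in atria. Scg5, a granule chaperone, had no count in any ventricular library, and its mean atrial level was at least 11.5-fold higher than 3 counts over the 3 ventricular libraries.

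The myosin light chains separated the chambers almost completely. The ventricular regulatory chain Myl2 had 5892, 7081 and 6994 normalized CPM in ventricle and 8.92, 8.09 and 153 in atria, and the ventricular essential chain Myl3 had 3736, 4219 and 4136 and 5.33, 5.44 and 93.7. Their folds were 118 and 116 (adjusted p = 4.32e-06 and 6.02e-06), and 782 and 748 without atrial library 3. The atrial regulatory chain Myl7 had 2.89, 76.3 and 28.7 normalized CPM in ventricle and 2706, 2465 and 2355 in atria, and the atrial essential chain Myl4 had 6.76, 126 and 51.1 and 4833, 4642 and 4134. Their folds toward atria were 69.6 and 74.0 (adjusted p = 7.36e-06 and 3.15e-06), and 159.7 and 157 without ventricular library 2. In a fit of these 6 libraries alone with the replicate number as a block, the calls of the 4 chains were lost (adjusted p = 0.0641 for Myl2, 0.0641 for Myl3, 0.0689 for Myl4 and 0.0798 for Myl7), and with the block in the fit of all 36 libraries they held (adjusted p = 4.73e-05, 7.20e-05, 1.29e-04 and 2.31e-04). Each chamber had 1 regulatory and 1 essential chain at high level: 16539 ± 2052 for Myl2 and 6186 ± 558 for Myl3 in ventricle, and 10898 ± 526 for Myl7 and 10651 ± 387 for Myl4 in atria (mean TPM ± SD, n = 3).

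Promoters of an atrial light chain, a ventricular light chain and a ventricle-biased actin are printed because members of all these kinds hold the same element, a CArG match, close to the start. Capitals mark motif matches as above. Myl7 (chr11:5898733-5899032, minus strand), Myl3 (chr9:110763428-110763727, plus strand) and Acta1 (chr8:123894726-123895025, minus strand) each hold 1 CArG match, with 51, 75 and 63 bases between it and the start, and no match to the other 5 motifs. CArG matches occur in 1.63% of all windows. These promoters were chosen for holding the match, and the share among other sarcomere genes is not given, so enrichment was not tested. The match is a description of these letters and was found in genes of either chamber.
Myl7: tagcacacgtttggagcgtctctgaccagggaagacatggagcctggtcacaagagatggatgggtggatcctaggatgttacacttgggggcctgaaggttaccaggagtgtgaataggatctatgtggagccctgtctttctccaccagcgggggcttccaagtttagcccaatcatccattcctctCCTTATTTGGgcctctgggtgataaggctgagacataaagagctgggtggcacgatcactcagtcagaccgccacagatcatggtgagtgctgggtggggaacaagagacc
Myl3: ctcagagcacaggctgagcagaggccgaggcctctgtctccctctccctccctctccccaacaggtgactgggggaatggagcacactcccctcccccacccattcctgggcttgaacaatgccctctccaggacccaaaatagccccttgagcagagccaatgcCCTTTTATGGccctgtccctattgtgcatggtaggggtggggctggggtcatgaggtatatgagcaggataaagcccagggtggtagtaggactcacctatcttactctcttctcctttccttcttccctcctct
Acta1: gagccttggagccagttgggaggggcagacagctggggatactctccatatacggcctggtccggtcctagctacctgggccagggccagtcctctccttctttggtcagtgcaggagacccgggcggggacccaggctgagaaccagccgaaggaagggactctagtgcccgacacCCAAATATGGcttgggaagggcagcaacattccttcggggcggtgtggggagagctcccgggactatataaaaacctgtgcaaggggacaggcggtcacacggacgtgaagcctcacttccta

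The sarcomere list as a whole, which includes the myosin light chains above, leaned toward ventricle. Of 29 genes tested, 14 were called higher in ventricle (48.3%, beside 11.2% of all genes) and 6 higher in atria (20.7%, beside 13.7%). The median log2 ratio was 0.54 beside -0.03 for all genes. On log2(TPM + 1) the list median was 0.00. With library totals the counts were 9 and 7. Acta1, skeletal α-actin, had 447, 1021 and 414 normalized CPM in ventricle and 11.1, 16.3 and 9.06 in atria (51.6-fold, adjusted p = 1.23e-06). Myh7b, a slow-type myosin heavy chain, was 54.8-fold higher in ventricle with 58.8, 58.2 and 100.5 against 0.604, 0.334 and 3.03 normalized CPM, and 153-fold without atrial library 3. Mybpc3, cardiac myosin binding protein C, was 2.58-fold higher in ventricle, Tnnc1, troponin C, 2.63-fold, and the cardiac actin Actc1 2.0-fold. In the other direction Mybphl, a myosin binding protein H relative, had 1.85, 17.7 and 6.91 normalized CPM in ventricle and 718, 724 and 663 in atria (79.2-fold, and 161-fold without ventricular library 2). Tnni1, the slow skeletal troponin I, had 0, 0.623 and 0.265 normalized CPM in ventricle and 5.44, 4.95 and 8.11 in atria (20.1-fold, and 47.9-fold without ventricular library 2), and Myl1 and Myl9, light chains of skeletal and smooth muscle, were 4.72-fold and 5.67-fold higher in atria.

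Several core sarcomere genes lay within 1.5-fold. Myh6, the main myosin heavy chain of the adult mouse heart, had 29510.2, 29420.1 and 33159 normalized CPM in ventricle and 34671, 34944 and 34495 in atria (log2 ratio -0.18 ± 0.09, adjusted p = 0.127). Its promoter also drives the activator transgene of these mice. Tnnt2 and Tnni3, cardiac troponins T and I, had log2 ratios of 0.39 and 0.25, which passed edgeR's test (adjusted p = 9.17e-04 and 0.00564) but not the fold. With library totals the ratio of Tnni3 was -0.06. Myh7, the slow heavy chain, was at the edge of the fold limit (1084, 1544 and 1986 in ventricle and 991, 977 and 1042 in atria, log2 ratio 0.62 ± 0.19). It was not called without ventricular library 3 (log2 ratio 0.39) or with library totals (0.30), and the replicate block took the ratio below the fold limit (adjusted p = 0.0384 in all 36 libraries and 0.0594 in the 6).

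Calcium handling genes differed between family members in the same way. The sarcoplasmic calcium pump Atp2a2 did not separate the chambers, at 16332, 15191 and 14464 normalized CPM in ventricle and 16959.8, 16058 and 14766 in atria (log2 ratio -0.06 ± 0.08). Its inhibitors did. Phospholamban, Pln, had 6062, 6251 and 6140.2 normalized CPM in ventricle and 1512, 1624 and 1768 in atria (3.76-fold, adjusted p = 5.15e-15), and sarcolipin, Sln, had 2.55, 33.1 and 11.5 and 1069, 1091 and 1119, a fold of 69.3 toward atria (adjusted p = 8.33e-07) that became 157 without ventricular library 2. On the TPM scale Pln was at 3502 ± 195 in ventricle and 1368 ± 191 in atria, and Sln at 15.5 ± 15.1 and 1590.4 ± 119 (mean ± SD, n = 3), so atrial tissue held both inhibitors at similar transcript levels and ventricle chiefly Pln.

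Among calcium channels, the L-type pore subunit Cacna1c was 2.66-fold higher in ventricle (456, 451 and 495 against 179.7, 164 and 182 normalized CPM) while its relative Cacna1d, known from the sinoatrial node, was 5.69-fold higher in atria (3.28, 3.19 and 4.0 against 21.7, 20.3 and 17.5). The T-type subunit Cacna1h was 6.9-fold higher in atria (adjusted p = 4.53e-06, and 0.0725 with the replicate block in the 6 libraries), and Cacna1g was not called (log2 ratio 0.54 ± 0.29). The accessory subunits split as well, with Cacna2d1 1.89-fold higher in ventricle and Cacna2d2 22.7-fold higher in atria. The ryanodine receptor of the heart, Ryr2, had a log2 ratio of 0.15 ± 0.07, and the minor form Ryr3 was 12.4-fold higher in atria (2.43, 4.21 and 2.58 against 54.5, 30.8 and 29.6). Of 30 genes tested in this list, 9 were called higher in ventricle and 6 in atria, beside 11.2% and 13.7% of all genes. The counts were 5 and 7 with library totals and 2 and 9 on log2(TPM + 1). The list median of 0.36 fell to 0.04 with library totals and to -0.17 on log2(TPM + 1).

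Potassium channels differed in both directions. Of 34 tested, 12 were called higher in ventricle and 10 in atria (35.3% and 29.4%, beside 11.2% and 13.7% of all genes). With library totals the counts were 10 and 11. The subunits of the acetylcholine-gated channel, Kcnj3 and Kcnj5, were 6.76-fold and 4.21-fold higher in atria (108, 102 and 72.0 against 614, 651 and 636 normalized CPM for Kcnj3). The sulfonylurea receptors of the ATP-sensitive channel went opposite ways: Abcc8 was 2.65-fold higher in atria (50.6, 44.0 and 47.3 against 123, 123 and 130.5) and Abcc9 4.7-fold higher in ventricle (558, 542 and 543 against 115, 116 and 118), with non-overlapping groups for both. Their pore partner Kcnj11 had a log2 ratio of 0.00 and was not called. Abcc9 and the other pore subunit Kcnj8, also 2.64-fold higher in ventricle, are pericyte genes as well, and pericyte markers were higher in ventricle, as given below, and their part in these ratios was not tested.

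Kcnip2, the auxiliary subunit of the transient outward channel, was 4.47-fold higher in ventricle (88.3, 80.2 and 99.2 against 16.6, 17.7 and 25.5 normalized CPM). The pore gene Kcnd2 was not called (log2 ratio 0.52 ± 0.31), with 76.1, 37.1 and 25.1 in ventricle and 33.9, 27.6 and 34.7 in atria, so the 3 ventricular libraries ranged more widely than the chambers differed. Kcna5 was 2.79-fold higher in ventricle and Kcna4 3.55-fold higher in atria. Kcnj2, the main inward rectifier, had a log2 ratio of 0.21 ± 0.10, while its relative Kcnj4 was 12.8-fold higher in ventricle at a low level (4.18, 4.35 and 5.43 against 0.416, 0.334 and 0.334). The ERG family members Kcnh2 and Kcnh7 were 2.01-fold and 35.5-fold higher in atria.

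Of 13 sodium channel genes tested, 3 were called higher in ventricle and 3 in atria, shares of 23.1% each beside 11.2% and 13.7% of all genes. With library totals the counts were 2 and 4, and on log2(TPM + 1) 1 and 3. The modulatory subunit Scn4b was 6.07-fold higher in ventricle (223, 138 and 83.5 against 31.2, 23.4 and 18.6 normalized CPM), and Scn10a 3.22-fold higher in atria. The largest split was between intracellular channel partners: Fgf12 had 0.459, 5.31 and 1.82 normalized CPM in ventricle and 142, 131 and 98.2 in atria, a fold of 48.0 toward atria (111 without ventricular library 2), and Fgf13 had 52.0, 48.5 and 45.4 and 31.6, 33.2 and 31.2, a log2 ratio of 0.60 ± 0.10 toward ventricle that was 0.28 with library totals and fell below the fold limit without ventricular library 1 (0.55) or atrial library 3 (0.58).

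Connexins couple cardiomyocytes electrically. Gja1, the connexin of working myocardium, did not differ beyond its spread (318, 281 and 309 in ventricle and 313, 310.2 and 336 in atria, log2 ratio -0.08 ± 0.11), and Gja5, found in atria and the fast conduction system, had 4.76, 8.14 and 7.35 and 85.5, 74.9 and 78.8 normalized CPM (11.8-fold higher in atria, adjusted p = 4.23e-13). Of 8 connexins tested, 4 were higher in atria and 1, the vascular Gja4, higher in ventricle (2.0-fold), beside 13.7% and 11.2% of all genes.

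In the pacemaker and conduction list, 8 of 21 genes were higher in atria and 4 higher in ventricle (38.1% and 19.0%, beside 13.7% and 11.2% of all genes), or 9 and 4 with library totals. The nodal transcription factor Shox2 had 0.493, 1.01 and 0.53 normalized CPM in ventricle and 6.9, 5.5 and 2.83 in atria (7.41-fold). Hcn4, the main pacemaker channel, was not called, with 8.48, 14.3 and 20.9 in ventricle and 15.5, 13.1 and 2.88 in atria, where library 3 was again lowest. Hcn2 was 2.93-fold higher in ventricle (42.8, 39.6 and 43.5 against 15.8, 13.6 and 13.6). Vsnl1 and Cpne5, both enriched in the sinoatrial node, were 57.7-fold and 45.3-fold higher in atria, and 110.1-fold and 80.3-fold without ventricular library 3.

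Autonomic signalling leaned toward atria, with 11 of 30 genes higher there and 6 higher in ventricle (median log2 ratio -0.28), or 13 and 6 with library totals, beside 13.7% and 11.2% of all genes. Members of the muscarinic pathway were among them. Chrm2, the muscarinic receptor of the heart, was 2.76-fold higher in atria (192, 195 and 154 against 514, 512 and 468 normalized CPM), the G protein subunit Gnao1 5.45-fold, and Rgs6, which ends that signal, 2.72-fold. The calcium-stimulated adenylyl cyclase Adcy1 had 2.24, 5.24 and 3.75 in ventricle and 200.5, 225 and 178 in atria (53.5-fold, adjusted p = 6.64e-13), whereas the main cardiac cyclases Adcy5 and Adcy6 were not called (log2 ratios -0.45 and -0.37). The β-adrenergic receptor Adrb1 had a log2 ratio of -0.19 ± 0.16. The α-adrenergic receptor Adra1a was 14.7-fold higher in ventricle, with 29.2, 25.9 and 21.6 against 1.96, 1.57 and 1.68.

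Transcription factors of chamber identity were present in the adult tissue at low to moderate levels. Of 38 tested, 9 were higher in ventricle and 11 higher in atria (23.7% and 28.9%, beside 11.2% and 13.7% of all genes). The balance depended on the scale, with 7 and 14 called with library totals and 6 and 20 on log2(TPM + 1). All 5 Iroquois genes tested, Irx1 to Irx5, were higher in ventricle. Irx4, the ventricular member, had 22.0, 23.0 and 30.4 normalized CPM in ventricle and 0.0126, 0.0128 and 0.295 in atria (232-fold, and 1739.7-fold without atrial library 3, the other atrial libraries being near 0). Irx1 had 1.97, 8.72 and 18.1 and 0.0126, 0.128 and 0.0642, and Irx2 0.833, 6.13 and 14.7 and 0.139, 0.0514 and 0.116, so ventricular library 1 held several times less of both than the other ventricular libraries, yet stayed above every atrial library. Their folds of 137 and 69.4 became 76.9 and 33.7 without ventricular library 3, and that of Irx1 240.3 without atrial library 2. Irx3 was 16.6-fold higher and Irx5 6.29-fold higher in ventricle (4.06-fold without ventricular library 3).

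On the atrial side Tbx5 had 34.5, 30.9 and 36.7 normalized CPM in ventricle and 284, 288 and 256 in atria (8.12-fold, adjusted p = 8.12e-21), with a log2 ratio of -3.02 ± 0.10. The COUP receptors Nr2f1 and Nr2f2, which hold atrial identity, were 8.13-fold and 4.99-fold higher in atria. Tbx20, Etv1 and Gata5 were 2.58-fold, 3.48-fold and 14.1-fold higher in atria, the last at a low level (24.8-fold without ventricular library 3). The general cardiac factors Gata4, Mef2a, Mef2c, Tead1 and Nkx2-5 were not called, with log2 ratios of 0.04, -0.13, -0.09, 0.18 and -0.34, and the ratios of Gata4 and Tead1 turned negative with library totals (-0.28 and -0.14).

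Retinoic acid patterns the atria in the embryo. Of its 21 pathway genes tested, 10 were higher in adult atria and 3 higher in ventricle, or 14 and 2 with library totals. The first counts were 47.6% and 14.3%, beside 13.7% and 11.2% of all genes. Aldh1a2, a retinoic acid synthesizing enzyme, had 2.77, 3.03 and 2.46 normalized CPM in ventricle and 11.7, 10.3 and 13.3 in atria (4.27-fold). The chemerin gene Rarres2 was 4.7-fold higher in atria. The ventricle-biased members were Rbp7 (5.22-fold), known from endothelium, the receptor Rxrg (2.23-fold) and Dhrs3 (log2 ratio 0.69, 0.37 with library totals), whose call was also lost without ventricular library 3. Most receptors were not called: Rarb, Rarg, Rxra and Rxrb had log2 ratios of -0.55, -0.30, 0.43 and 0.12.

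**Figure D3:**
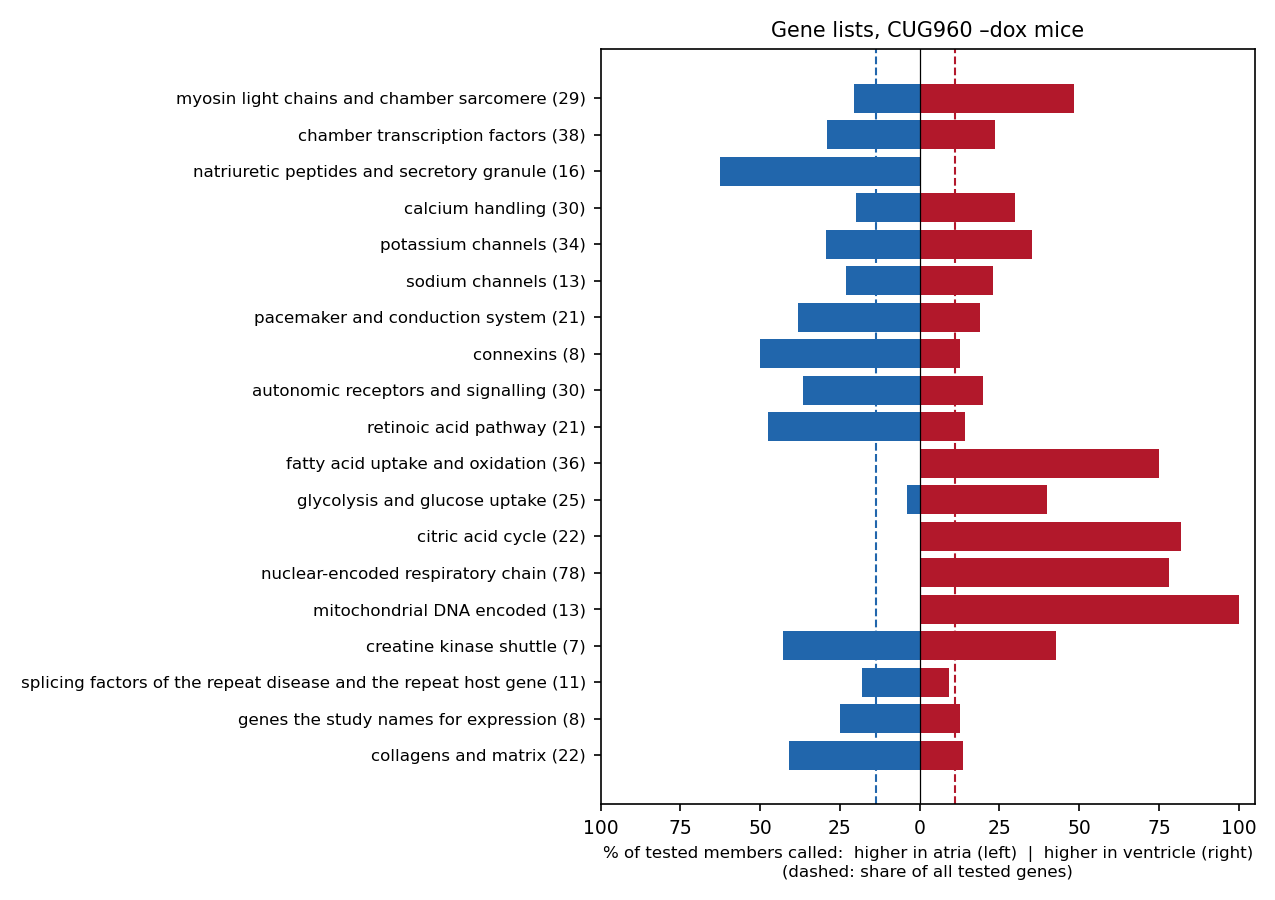
Share of the tested members (number in parentheses) of each gene list that was called higher in atria (blue, to the left) or in ventricle (red, to the right), with dashed lines at the share of all genes tested. Mitochondrial and fatty acid lists lie almost wholly to the right, natriuretic and retinoic acid lists mainly to the left, and channel, calcium and transcription factor lists extend both ways.

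On the TMM scale, genes of energy metabolism were called almost entirely in 1 direction, higher in ventricle. Of 36 genes of fatty acid uptake and oxidation, 27 were called higher in ventricle and 0 in atria, beside 11.2% and 13.7% of all genes. The median log2 ratio of this list was 1.06. With library totals 20 were still called higher in ventricle and 0 in atria (median 0.75). On log2(TPM + 1) 17 were called higher in ventricle and 1 in atria (median 0.48). Fabp3, the fatty acid binding protein of the heart, had 3614, 3648 and 2934 normalized CPM in ventricle and 1132, 1052 and 991 in atria (3.21-fold, adjusted p = 3.01e-09). Lipoprotein lipase, Lpl, was 2.98-fold higher in ventricle (4343, 3935 and 3981 against 1349, 1335 and 1434), the fatty acid transporter Cd36 2.26-fold and the lipid droplet protein Plin5 4.6-fold. β-oxidation enzymes moved together by similar amounts, Acadvl 2.47-fold and Hadha 2.4-fold. The regulators Ppargc1a, Esrra and Ppara had log2 ratios of 0.22, 0.19 and 0.51, all under the fold limit, and those of the first 2 were negative with library totals (-0.10 and -0.13).

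Of 22 citric acid cycle genes 18 were higher in ventricle (81.8%, beside 11.2% of all genes) and 0 in atria (median 0.90). With library totals 11 were higher in ventricle, and on log2(TPM + 1) 4 were, with 0 higher in atria on either scale. The largest ratio of this list was that of Idh2, a mitochondrial isocitrate dehydrogenase (1589, 1433 and 1822 against 570, 573 and 689 normalized CPM, 2.64-fold). Of 78 nuclear-encoded respiratory chain genes 61 were higher in ventricle (78.2%, beside 11.2% of all genes) and 0 in atria, with a median of 0.73. The count toward ventricle depended on the scale. It was 20 with library totals, where 1 gene, Cox8a, was called higher in atria. On log2(TPM + 1) 3 genes were called higher in ventricle and 2 in atria. The summed TPM of the list was 6.23 to 6.96% of all TPM in ventricle against 5.78 to 5.98% in atria. Ndufs6, a complex I subunit, had one of the larger ratios (156, 188 and 186 against 68.2, 65.0 and 64.2 normalized CPM, 2.69-fold). The muscle isoform Cox8b was 2.35-fold higher in ventricle, while its ubiquitous counterpart Cox8a had a log2 ratio of -0.33 ± 0.13 and Cox6a1 of -0.08 ± 0.11.

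All 13 protein genes of mitochondrial DNA were called higher in ventricle, beside 11.2% of all genes. Their median log2 ratio was 1.00, and 0.68 with all 13 still called on library totals. On log2(TPM + 1) 4 were called higher in ventricle and 0 in atria, with a list median of 0.45. The summed TPM of all 13 genes was 27.9 to 30.6% of all TPM in the ventricular libraries and 19.6 to 21.8% in the atrial ones. mt-Co1, a subunit of cytochrome c oxidase, had 90863, 85001 and 77816 normalized CPM in ventricle and 39558, 39839 and 34285 in atria (2.23-fold). These transcripts share sequence with nuclear copies such as Gm28661, Gm28437, Gm10925 and Gm29216, which were among the 10 genes with the largest gain in ventricular TPM, and reads could have been split between the copies.

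**Figure D4:**
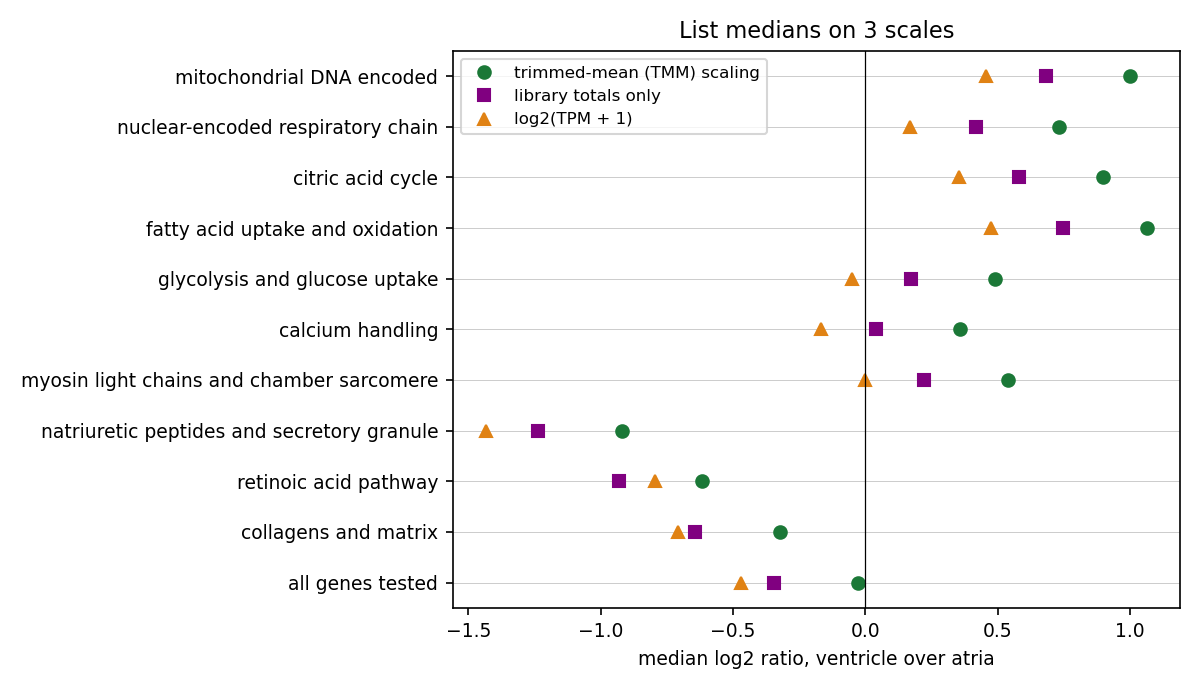
Median log2 ratio of ventricle over atria for 10 gene lists and for all genes tested, on the TMM scale (circles), with library totals (squares) and on log2(TPM + 1) (triangles). Every list lies furthest to the right on the TMM scale, as do all genes, and the mitochondrial and fatty acid lists stay above 0 on all 3 scales, while glycolysis and calcium handling cross 0 on the TPM scale.

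Glycolysis followed less clearly. Of 25 genes 10 were higher in ventricle and 1 in atria (40.0% and 4.0%, beside 11.2% and 13.7% of all genes). With library totals the counts were 4 and 3. Hk2, a hexokinase, was 2.21-fold higher in ventricle, and the brain-type Aldoc 10.2-fold higher in atria at a low level (0.153, 0.104 and 0.151 against 1.47, 1.39 and 1.31 normalized CPM). The glucose transporters Slc2a4 and Slc2a1 had log2 ratios of 0.55 and -0.39. Creatine kinases split by isoform: the muscle forms Ckm and mitochondrial Ckmt2 were 2.14-fold and 2.72-fold higher in ventricle, and the brain-type Ckb and ubiquitous mitochondrial Ckmt1 2.24-fold and 5.51-fold higher in atria. Myoglobin, Mb, the oxygen store of muscle, is outside the lists and was singled out after its values were seen: it had 10594, 10817 and 10136 in ventricle and 3876, 4018 and 3659 in atria (2.73-fold).

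Markers of several other cell types also differed between the chambers. In bulk tissue a difference in the number of cells of a type and a difference in RNA per cell cannot be told apart. Beside the marker counts below stand the 11.2% of all genes called higher in ventricle and the 13.7% called higher in atria. Mesothelial and epicardial markers had a summed TPM of 3.43 to 4.12 in ventricle and 73.7 to 129 in atria, and 7 of 8 were called higher in atria. Upk3b, a uroplakin of mesothelium, had 0.204, 0.816 and 0.379 normalized CPM in ventricle and 75.5, 57.8 and 80.3 in atria (148-fold, and 246-fold without ventricular library 2), and Msln, mesothelin, 0.119, 0.727 and 0.436 and 29.5, 24.3 and 40.6 (72.0-fold, and 116-fold without the same library). Wt1 was the marker not called (log2 ratio -0.24 ± 0.22). Endocardial markers summed to 27.6 to 35.7 TPM in ventricle and 315 to 403 in atria, and 4 of 4 were higher in atria, among them Vwf (7.63-fold) and Plvap (12.5-fold).

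Fibroblast markers were higher in atria for 6 of 7, with summed TPM of 4214 to 4865 against 1204 to 1371 in ventricle, mostly from Gsn and Dcn, which other cells also express. Tcf21, a factor of epicardium-derived fibroblasts, was 3.6-fold higher, Dcn, decorin, 1.62-fold, and Lum was not called (log2 ratio -0.15 ± 0.23). In the collagen and matrix list 9 of 22 were higher in atria and 3 in ventricle, or 10 and 2 with library totals. The first counts were 40.9% and 13.6%, beside 13.7% and 11.2% of all genes. Ccn2, a matrix-associated growth factor response gene, was 4.62-fold higher in atria and Fn1, fibronectin, 2.31-fold, while the basement membrane collagens Col4a1 and Col4a2 were 1.84-fold and 2.01-fold higher in ventricle. Col1a1 and Col3a1 lost their calls when single libraries were left out (log2 ratios -0.53 and -0.77 without atrial library 3). Macrophage markers were higher in atria for 6 of 7, with summed TPM of 455 to 485 against 159 to 182 (Lyz2, lysozyme, 1.96-fold). Schwann cell and glia markers were higher in atria for 4 of 5, and cartilage and valve matrix markers for 3 of 5.

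Capillary-associated lists went the other way or were mixed. Of 5 pericyte markers 3 were higher in ventricle (Rgs5 3.59-fold) and 0 in atria, with summed TPM of 255 to 269.6 in ventricle and 106 to 125 in atria. Among 6 general endothelial markers, Cdh5 and Kdr were higher in ventricle (1.72-fold and 2.32-fold) and Emcn higher in atria (2.06-fold). Smooth muscle markers were called 1 in each direction, Myh11 in ventricle and Cnn1 in atria (14.5-fold). Lymphatic markers were called for 1 gene in ventricle and 2 in atria of 5. The 6 adipocyte and 5 red blood cell markers gave no call in edgeR's test without the block, although 3 adipocyte markers were called higher in atria on log2(TPM + 1). Hba-a1, a globin gene with a near-identical copy, had 382, 393 and 783 normalized CPM in ventricle and 92.2, 101 and 395 in atria, with library 3 highest in both and ventricle higher in each of the 3 pairs. It was not called (log2 ratio 1.40 ± 0.73, adjusted p = 0.133), but with the replicate block in edgeR's test it was (log2 ratio 1.66, adjusted p = 0.00241 in all 36 libraries, and 1.67 and 0.0451 in the 6). Of 6 T cell markers 1 was higher in atria, 5 B cell markers gave none, and brown adipocyte markers gave 2 of 4 higher in ventricle with Ucp1 at 0 in all 6 libraries. Neuronal markers gave 1 of 3 tested higher in ventricle and fast skeletal muscle markers 1 higher in ventricle and 3 in atria of 6, all at summed TPM of 6.17 or less. No lung epithelium or thymocyte marker was abundant enough to be tested. None of 5 sex-linked genes was called. The part of any of these cells in the other results was not tested.

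The largest folds toward ventricle, by the rule stated under the processing, included those of Aqp8, Irx4, Irx1, Mettl11b, Myl2, Myl3, Dct, Irx2 and Pde11a. Aqp8, a water channel, had 2.89, 5.95 and 6.78 normalized CPM in ventricle and 0, 0 and 0.0257 in atria, with 929 against 2 counts in all and a ratio of 609.8 (95% exact interval 168 to 5043) in normalized counts. Dct, a melanin pathway enzyme, had 4.42, 6.3 and 3.71 in ventricle and 0.0882, 0.0514 and 0.0128 in atria (91.4-fold, and 142-fold without atrial library 1). Pde11a, a cyclic nucleotide phosphodiesterase, had 2.79, 3.63 and 2.01 and 0, 0.0385 and 0.103 (57.9-fold, and 135-fold without atrial library 3), and Mettl11b, a methyltransferase-like gene, was 125-fold higher (199-fold without that library). All 3 ventricular libraries lay above all atrial libraries for each of these genes.

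Toward atria the largest folds were those of Tat, Bmp10, Uts2b, Hamp, Upk3b, Cxcl13, Lrp2, Muc16, Lrrn4 and Cybrd1. Tat, tyrosine aminotransferase, an enzyme of tyrosine breakdown, had 0, 0.0148 and 0 normalized CPM in ventricle and 3.17, 3.46 and 2.77 in atria, with 1 against 737 counts and a ratio of 561 (95% exact interval 100.5 to 22204). Hamp, the iron regulating hormone hepcidin, had 0.085, 0.237 and 0.473 and 56.3, 85.9 and 36.4 (229-fold, adjusted p = 1.60e-13, and 356-fold without ventricular library 3), and Cybrd1, an iron reductase, 0.119, 0.089 and 0.17 and 13.6, 10.2 and 12.4 (96.2-fold). Uts2b, a vasoactive peptide of the urotensin family, had 2 counts in ventricle and 812 in atria, a ratio of 309 (95% exact interval 85.3 to 2558). Cxcl13, a lymphocyte attracting chemokine, had 0.17, 0 and 0.133 and 14.7, 19.6 and 7.89 (144-fold, and 232 or 91.5 without ventricular library 1 or 2). Upk3b, Muc16 and Lrrn4 are genes of mesothelium, and their levels lay with those of the mesothelial markers above (0.051, 0.252 and 0.208 against 21.6, 16.1 and 21.4 for Muc16). Lrrn4 was 106-fold higher in atria (206-fold without ventricular library 2), and Lrp2, a large endocytic receptor, 131-fold.

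By gain in TPM the leading atrial genes were Nppa, Myl7, Myl4, Gsn, Pam, Eef1a1, Gpx3, Clu, Sln and Mgp. Eef1a1, the general translation elongation factor, had 762, 861 and 807 normalized CPM in ventricle and 2724, 2688 and 2482 in atria (3.25-fold, adjusted p = 1.16e-19), and Gpx3, a secreted glutathione peroxidase, 203, 259.7 and 243 and 1974, 1984 and 1918 (8.33-fold). Gsn, the actin-severing protein gelsolin, was 2.97-fold higher in atria, Clu, the secreted chaperone clusterin, 3.71-fold and Mgp, a matrix inhibitor of calcification, 2.4-fold. In ventricle the leading genes were the mitochondrial transcripts mt-Co1, mt-Atp8, mt-Nd1, mt-Cytb and mt-Nd4l, the 4 nuclear copies named above, and Myl2.

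Genes tied to the repeat disease were called about as often as all genes. Of 11 tested in this list 1 was higher in ventricle (9.09%, beside 11.2% of all genes) and 2 in atria (18.2%, beside 13.7%), and on log2(TPM + 1) 0 and 5. Mbnl1 and Mbnl2, the splicing regulators that the repeat sequesters, had log2 ratios of 0.20 ± 0.09 and 0.14 ± 0.09 (179, 209 and 165 against 165, 169 and 149 normalized CPM for Mbnl1), and Dmpk, the gene that carries the repeat in patients, of 0.19 ± 0.09. These ratios were negative with library totals (-0.12, -0.18 and -0.13), and none was called on either scale. Mbnl3 was 4.51-fold higher in ventricle at under 1 normalized CPM (0.646, 0.311 and 0.682 against 0.063, 0.0771 and 0.218, and 7.61-fold without atrial library 3). Rbfox1, a neuronal and muscle splicing factor, was 1.65-fold higher in atria, a call lost without ventricular library 3, and Celf4, of another splicing factor family, 4.44-fold at a low level. Among genes that the study singles out for expression, Ckmt2 was higher in ventricle, Kcna4 and Gja5 were higher in atria, and Ryr2, Asph, Cdnf and Hcn4 were not called.

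The chamber comparison was repeated in the 6 libraries of the +/–dox cohort, which come from other animals. There 4662 genes were called (24.2%), 2158 higher in ventricle (11.2%) and 2504 higher in atria (13.0%). In all 3891 genes were called in both cohorts, 81.1% of the –dox calls and 83.5% of the +/–dox calls, and all of them in the same direction. Of the 4795 –dox calls, 37 had the opposite sign in +/–dox mice, and 0 of those were called there. Among these 37 the largest –dox log2 ratio was 7.65 in absolute value, so not all were small. The leading genes had similar ratios in both cohorts: the log2 ratio of Nppa was -6.23 in –dox and -6.49 in +/–dox mice, that of Bmp10 -8.12 and -8.24, of Myl2 6.88 and 7.10, of Pln 1.91 and 2.14, and of Pam -2.65 and -2.76.

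Lists of metabolism and hormones gave similar counts. In +/–dox mice 11.2% of all genes were called higher in ventricle and 13.0% higher in atria. In +/–dox mice 27 of 36 fatty acid genes, 20 of 22 citric acid cycle genes and 63 of 78 respiratory chain genes were higher in ventricle and none was higher in atria, and 9 of 16 natriuretic and granule genes and 10 of 21 retinoic acid genes were higher in atria. In the same mice 2 retinoic acid genes and 1 of the natriuretic and granule list were higher in ventricle, the latter being Pcsk1, a prohormone convertase at a low level, with log2 ratios of 2.75 in +/–dox mice and 0.89 ± 0.70 in –dox mice, where it was not called. Fibroblast markers were called for 3 of 7 and macrophage markers for 3 of 7 in atria, against 6 of 7 for each in –dox mice, and of the 6 ventricular markers 4 were called, Hey2 and Myh7 missing the fold limit. The difference between the chamber differences was tested for each gene: edgeR gave 0 calls (0.0%), with 425 genes at an unadjusted p under 0.05 and a lowest adjusted p of 0.943, and DESeq2 gave 0 calls with 554 genes at an unadjusted p under 0.05. A miss of the threshold with 3 mice per group does not show that the differences are equal. Without atrial –dox library 3 a single gene was called, Mthfd2, and without atrial +/–dox library 3 another, 2310015A16Rik, both named after their values were seen.

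**Figure D5:**
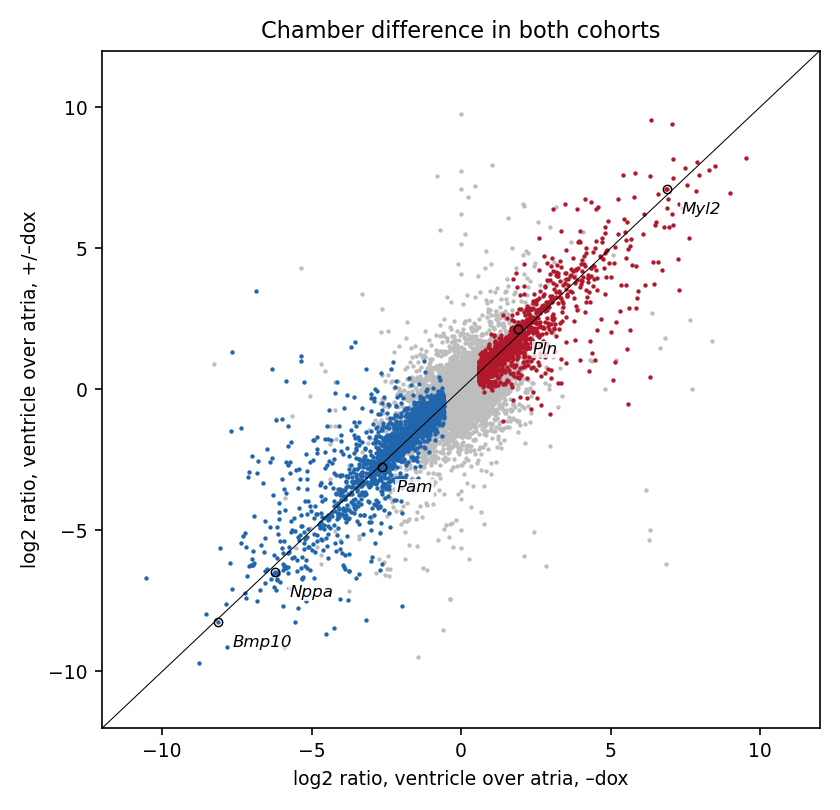
Log2 ratio of ventricle over atria in +/–dox mice against that in –dox mice for each gene tested, with red and blue for genes called in –dox mice and the line of equality. The called genes lie along the line from Bmp10 near -8 in both cohorts to Myl2 near 7.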

How the data were processed

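Poly(A) RNA of left ventricle and atria was sequenced as stranded libraries. The authors aligned reads with STAR 2.7.10b to mm10 and quantified GENCODE M25 genes with RSEM 1.3.1, which divides reads shared by near-identical copies. How RSEM was told to treat strand was not found in the sources used here, so values of overlapping antisense genes are uncertain. The deposited expected counts, one per gene and library, were rounded to whole numbers. The deposited TPM values were used as the authors gave them.

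All 36 libraries in 12 groups were fitted with edgeR 4.0.16 (TMM, filterByExpr, robust quasi-likelihood test, Benjamini-Hochberg adjustment, R 4.3.3), after a check on simulated data. Alternatives used DESeq2 1.42.0, limma 3.58.1 on log2(TPM + 1) or log2(TPM + 0.1), other scalings and filters, and fits without single libraries. Gene symbols were those of the files, and 96.4% matched an earlier GENCODE release than the authors used. That release also gave the protein-coding class of genes. A fold against a group at 0 used a floor of 3 counts over the group, and these floors and intervals cover counting error only. The smallest of the 12 libraries used held 55031987 counts.

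Replicate numbers were shared between tissues. Deviations from the chamber mean correlated at 0.381, 0.459 and 0.633 for libraries of the same number and at 0.154 or less for all others, so the numbers were taken to pair the tissues. In both chambers library 3 was the only one with Xist above 1 normalized CPM in –dox mice. Its library name also belongs to another number series than those of libraries 1 and 2. For library 3, pairing therefore cannot be told apart from sex or that series. Among libraries 1 and 2, same numbers correlated at 0.381 and 0.459 and different numbers at 0.0987 and 0.154. The labels do not tie numbers to animals. The p-values rest on the spread between libraries of the same group, pooled over all 12 groups of 3 libraries. The ventricular and atrial groups of a cohort come from the same animals. The main test was unpaired, and only the fits with the replicate block used the pairing.

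Genes were named if they belonged to the gene and marker lists, if they were among the 10 in each direction with the largest fold (protein-coding, non-overlapping, mean normalized count of at least 100) or if they were among the 10 in each direction with the largest TPM difference. Members and lists were chosen with earlier results of these data known. The genotype was not checked in the reads, and the transgene was not analysed here. Some genes of the lists are not reported here, and the list counts include them.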

Additional observations from a re-analysis of the deposited data

How the results depend on the processing

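With glmTreat against a fold of 1.5 the calls in –dox mice fell from 4795 to 2897, and with no fold limit they rose to 8194. In +/–dox mice the same settings gave 2802 and 8062 in place of 4662. Leaving out single libraries of the chambers compared gave 4440 to 4704 calls in –dox mice and 4333 to 4503 in +/–dox mice. For the difference between the cohorts it gave 0 to 1. Without 1 ventricular library of the cohort given an MBNL1 vector, outside both comparisons, the calls were 5112 and 4978. With the replicate number as a block in all 36 libraries the calls were 4812 and 4713, and 4906 in a blocked fit of the 6 –dox libraries alone. Beyond Myh7, Myl2, Myl3, Myl4, Myl7 and Cacna1h, given above, the block ended no call of a gene named here, and Hba-a1, also given above, was the single gene named here that gained one. The other scalings, filters and tools gave 4127 to 7040 calls in –dox mice, of which the highest, from limma on log2(TPM + 0.1), held 612 genes higher in ventricle and 6428 higher in atria. With library totals the +/–dox calls split into 1318 higher in ventricle and 4281 higher in atria. Of 138 called genes named here, none changed direction under any of the 19 alternatives. DESeq2 gave no adjusted p for Myl2 and kept the other 137 calls, RLE scaling kept all 138, glmTreat kept 125 and library totals kept 131. A chamber with a library left out rests on 2 libraries. Counts under about 3 per library limit the folds of Aqp8, Tat, Uts2b and Scg5 in the low chamber. Such counts were also found for Irx4 in atrial libraries 1 and 2 (0.01 TPM each, against 0.22 in library 3) and for Irx1 in atrial library 1.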

Other observations

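Genes of the pacemaker and conduction system varied between libraries of the same chamber, and the genes below were singled out after their values were seen. Among the atrial libraries of –dox mice, library 3 was the lowest for Hcn4 (15.5, 13.1 and 2.88 normalized CPM in libraries 1, 2 and 3), Shox2 (6.9, 5.5 and 2.83) and Cntn2, a cell adhesion molecule of the conduction system (20.5, 22.0 and 4.43). In the atria of +/–dox mice the lowest was library 1 for Hcn4 (2.99, 6.99 and 7.89) and Cntn2 (4.88, 12.4 and 13.1).

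Among the ventricular libraries, library 1 was the lowest in both cohorts for Irx1 (1.97, 8.72 and 18.1 in –dox and 2.41, 8.77 and 18.7 in +/–dox mice), Irx2 (0.833, 6.13 and 14.7 and 0.698, 5.05 and 13.5), Cntn2 (5.4, 18.5 and 30.1 and 4.81, 23.0 and 28.0) and Hcn4 (8.48, 14.3 and 20.9 and 9.31, 18.2 and 18.5). It was the highest in both for Scn4b (223, 138 and 83.5 and 178, 136 and 97.8) and Kcnd2 (76.1, 37.1 and 25.1 and 66.5, 50.6 and 41.1). These differences within a chamber were not tested, and libraries of the same number in the cohorts come from different animals.

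The sex-linked transcript Xist was at 0.867, 0.831 and 291 normalized CPM in the ventricular and 0.302, 0.244 and 424 in the atrial libraries of –dox mice, and at 1.11, 1.95 and 231 and 0.582, 0.655 and 443 in those of +/–dox mice, so that library 3 stood apart in each set.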
